A study of Danio rerio with 8 samples.

Results

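The genes nanog (ENSDARG00000075113) and pou5f3 (ENSDARG00000044774), maternal activators of the zebrafish genome, were followed by symbol through the deposited tables. They are 2 of the 33737 Ensembl gene identifiers listed there, and each symbol matched 1 identifier. The study sequenced poly(A) RNA from whole embryos of Danio rerio in 4 groups of 2 libraries. The groups were embryos given a ddx3xb morpholino at 6 hours post fertilization (hpf), embryos given a control morpholino at 6 hpf, ddx3xb morpholino embryos at 2 hpf and control morpholino embryos at 2 hpf. Morpholinos are antisense oligomers that bind an RNA and block its translation or splicing, and the product of ddx3xb is an RNA helicase of the DEAD-box family. The knockdown is therefore transient, and its depth in protein is not measured by these data. The genotype labels and tables call the control embryos wild type, while the sample titles name a control morpholino. The genotype label of 1 knockdown library at 6 hpf reads ddx4xb, against ddx3xb in its title. A 4 hpf stage is part of the design and was not analysed here.

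At fertilization the embryo runs on RNA and protein laid down in the egg, and its own genome is silent. Nanog, a homeodomain factor, Pou5f3, a POU-domain factor related to mammalian Oct4, and Sox19b, a SoxB1 factor, are translated from maternal mRNA. They bind and open chromatin so that the first zygotic genes can be transcribed, while maternal mRNAs are cleared. The nanog and sox19b transcripts are known as chiefly maternal, whereas pou5f3 is supplied by the mother and transcribed again by the embryo. In zebrafish Nanog is also required for the yolk syncytial layer, a nucleated layer that passes yolk on to the embryo.

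Expression was deposited as RPKM, a read count divided by the length of the gene and the depth of the library, with 1 value per gene for each group. The values have no replicate spread, so every difference below compares 2 tables and carries no error or p-value. Ratios were taken as log2 of (RPKM + 1), and a gene is said to have risen or fallen where the ratio was at least 2-fold. In all, 16217 genes were compared, those that reached 1 RPKM in some table. Exact steps in the lowest values gave the RPKM that 1 read is worth at 283 genes at 6 hpf and 248 genes at 2 hpf. At the 90th percentile of that worth, the values of nanog and pou5f3 stood for 1806 to 17497 reads, a counting error of 0.756% to 2.35%. The worth for nanog and pou5f3 themselves is unknown, since it depends on gene length, and counting error says nothing of the spread between embryos.

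The nanog transcript was far higher in knockdown than in control embryos at 6 hpf and stood at the same level in both at 2 hpf. It had 728 RPKM in knockdown embryos at 6 hpf and 208 RPKM in control embryos at 6 hpf. At 2 hpf it had 1187 RPKM in knockdown embryos and 1178 RPKM in control embryos. The table of control embryos at 6 hpf is the low one, and the other 3 tables hold 728 RPKM or more. The log2 ratio of knockdown over control was 1.81 at 6 hpf, a linear ratio of 3.51, so nanog rose in the knockdown at that age. At 2 hpf the ratio was 0.01, with no call. Quantile normalization put this 2 hpf ratio at -0.14 and rescaling to equal RPKM sums at -0.75, both short of 2-fold.

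The pou5f3 transcript did not pass 2-fold between knockdown and control embryos at either age. It had 675 RPKM in knockdown embryos at 6 hpf and 707 RPKM in control embryos at 6 hpf. It had 496 RPKM in knockdown embryos at 2 hpf and 566 RPKM in control embryos at 2 hpf. The 4 values span a far narrower range than those of nanog, and both 6 hpf tables lie above both 2 hpf tables. The log2 ratio of knockdown over control was -0.07 at 6 hpf and -0.19 at 2 hpf. These small ratios turned to 0.15 at 6 hpf with quantile normalization and to 0.0011 at 2 hpf with median-ratio rescaling, so they have no firm direction.

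**Figure D1:**
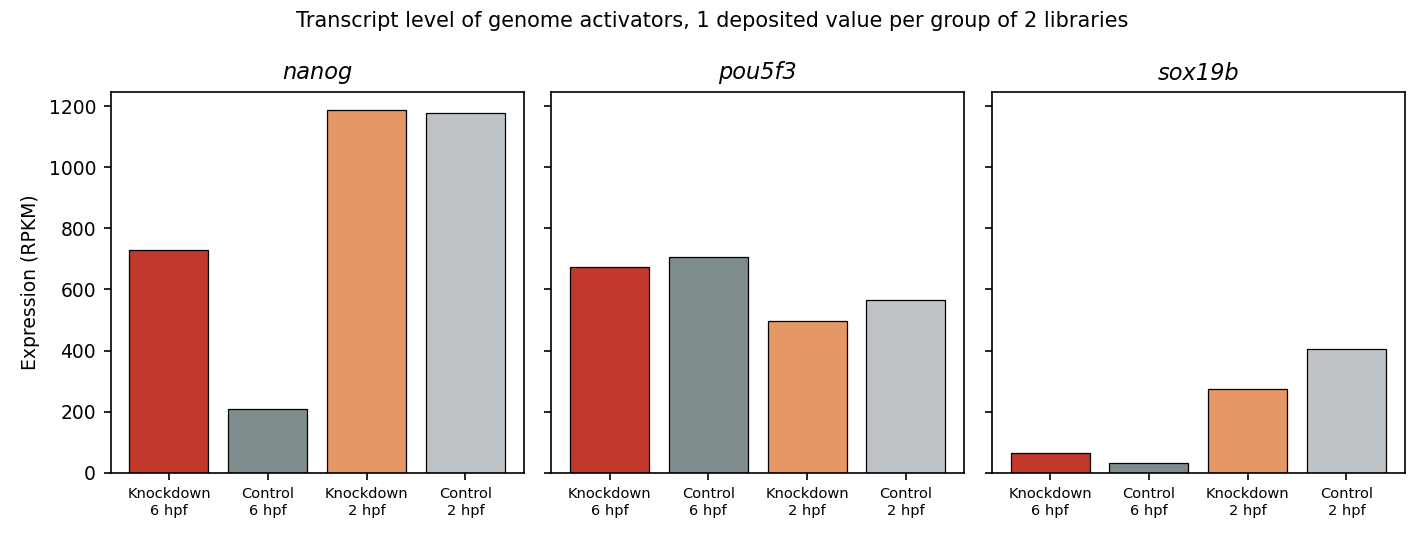
Expression in RPKM (bars, from 0) of nanog, pou5f3 and sox19b in knockdown and control embryos at 6 and 2 hpf, with 1 deposited value per group of 2 libraries and hence no error bars. Nanog stands at 728 RPKM in knockdown and 208 RPKM in control embryos at 6 hpf, whereas the pou5f3 bars lie between 496 and 707 RPKM.

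Over time nanog fell in control embryos and did not pass 2-fold in knockdown embryos. At 6 hpf, control embryos held 17.6% of the nanog RPKM found at 2 hpf, a log2 ratio of -2.50. Knockdown embryos at 6 hpf held 61.3% of the RPKM of knockdown embryos at 2 hpf, a log2 ratio of -0.70 that became -0.08 with equal RPKM sums. For pou5f3 the 6 hpf level was 136% of the 2 hpf level in knockdown embryos and 125% in control embryos, with log2 ratios of 0.44 and 0.32. The pou5f3 ratio in control embryos became -0.16 with quantile normalization. The nanog ratio of knockdown over control was larger at 6 hpf than at 2 hpf by 1.79 on the log2 scale, and by 1.24 to 2.52 under the other settings. For pou5f3 this difference between ages was 0.12, with a range of -0.43 after median-ratio rescaling to 0.84 with equal RPKM sums. The median of all 16217 genes was 0.35. These comparisons share tables, so they are not independent of one another.

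The counts over all genes give the background for these calls. In knockdown over control at 6 hpf, 8.72% of the 16217 genes had risen and 7.87% had fallen, and 95 genes had a higher ratio than nanog. In knockdown over control at 2 hpf, where neither nanog nor pou5f3 was called, 0.506% had risen and 0.943% had fallen. From 2 to 6 hpf, 25.5% of genes rose and 13% fell in knockdown embryos, against 27.5% and 28% in control embryos. A 2-fold fall was thus common in control embryos, and 621 genes fell further than nanog. The share of rises among the calls varied with the scaling. At 6 hpf 1414 genes had risen and 1277 had fallen, against 598 and 2176 after median-ratio rescaling. At 2 hpf the counts were 82 and 153, against 111 and 89 with the same rescaling and 119 and 89 with quantile normalization. Equal sums gave 100 and 122 when features above 5000 RPKM were left out and 36 and 3438 over all features. From 2 to 6 hpf 4132 genes rose and 2107 fell in knockdown embryos, against 3216 and 3220 after quantile normalization, and equal sums over all features gave 5956 and 902. In control embryos 4453 rose and 4547 fell, against 5608 and 2928 after median-ratio rescaling. Median-ratio rescaling moved the median of all genes at 6 hpf to -0.09 from 0.20, and the nanog ratio stayed past 2-fold at 1.44.

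The ratio of nanog to pou5f3 within a table does not change when the whole table is multiplied by 1 factor. The nanog RPKM was 1.08 times the pou5f3 RPKM in knockdown embryos at 6 hpf and 0.294 times in control embryos at 6 hpf. It was 2.39 times in knockdown embryos at 2 hpf and 2.08 times in control embryos at 2 hpf. Quantile normalization, which does not use 1 factor per table, put the control ratios at 0.319 at 6 hpf and 2.22 at 2 hpf. Thus nanog exceeded pou5f3 in 3 tables, and control embryos at 6 hpf were the exception. The unequal change of the transcripts at 6 hpf does not show which of them changed.

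Both transcripts were among the most abundant in the embryo on the per-length RPKM scale. Nanog ranked 50 in knockdown embryos at 6 hpf, 350 in control embryos at 6 hpf, 20 in knockdown embryos at 2 hpf and 17 in control embryos at 2 hpf, counting from the highest of all identifiers. Pou5f3 ranked 56, 63, 69 and 55 in the same tables. At 6 hpf control embryos had 14056 identifiers at 1 RPKM or more, so even there nanog lay near the top. A ranking was made of 44 identifiers of transcription factors, which were nanog, pou5f3 and factors from some of the lists below. The lists used were the SoxB1, pluripotency, Nanog route, Pou5f3 target, maternally supplied and POU lists, less ctnnb1 and ctnnb2. The first-wave list was not used, so factors held only there, such as foxa3 and irx7, were not ranked. Among these 44, nanog ranked 1 and pou5f3 ranked 2 in both 2 hpf tables and in knockdown embryos at 6 hpf. In control embryos at 6 hpf pou5f3 ranked 1 and nanog ranked 6. The factors above nanog there included pou5f3, the insulator protein gene ctcf at 441 RPKM, sall4 at 262 RPKM and sox3 at 231 RPKM. The unranked ctnnb1 at 543 RPKM and ctnnb2 at 316 RPKM also stood above nanog there. In knockdown embryos at 2 hpf ctnnb2 stood above pou5f3, at 565 RPKM.

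Transcripts as abundant as nanog and pou5f3 at the start were then set side by side at 6 hpf. A total of 61 genes averaged at least 500 RPKM over the 2 hpf tables, leaving out features above 5000 RPKM in any table. This level does not use the 6 hpf values, and the set was chosen after the data were seen. At 6 hpf 7 of the 61, or 11.5%, had risen in knockdown over control, near the 8.72% of all genes, and none had fallen. Their median log2 ratio was 0.20. Nanog had the highest ratio of these 61 genes, and pou5f3 was 47th from the highest. That first place depends on the limit of 5000 RPKM. Features left out by it included ratios of 2.32 and 1.84, above nanog, and of 1.53 and 1.49, below nanog.

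**Figure D2:**
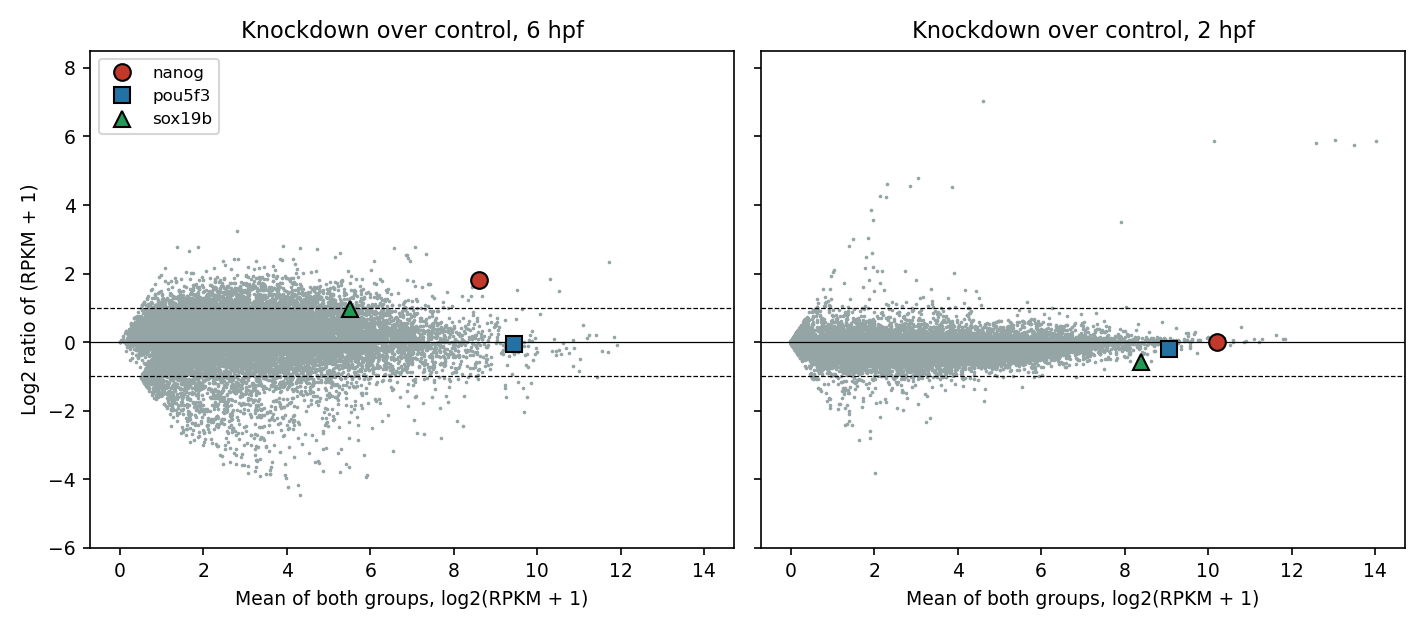
Log2 ratio of (RPKM + 1), knockdown over control, against the mean log2(RPKM + 1) of both groups for 16217 genes (grey points) at 6 hpf (left) and 2 hpf (right), with 2-fold marked by dashed lines. At 6 hpf nanog (red circle) lies at 1.81 among few genes of its level and pou5f3 (blue square) at -0.07, and at 2 hpf both lie within the dashed lines.

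Genes with a similar course over time also tended to be higher in the knockdown, by less than nanog. The course was taken as the mean of the knockdown and control log2 changes from 2 to 6 hpf, which was -1.60 for nanog. A total of 1972 genes had a course between -2 and -1 and at least 5 RPKM in both 2 hpf tables. Their median log2 ratio of knockdown over control at 6 hpf was 0.64, with quartiles of 0.26 and 0.97. Of these 1972 genes 459 had risen and 9 had fallen, beside 8.72% and 7.87% of all genes. Nanog ranked 30 from the highest of these. The pou5f3 course was 0.38, and 1843 genes had one between 0 and 1 at the same minimum level. Their median was 0.13, with quartiles of -0.17 and 0.42, and the pou5f3 ratio of -0.07 lay within these quartiles. At 2 hpf the medians of these sets were -0.14 and -0.20, beside 0.01 for nanog and -0.19 for pou5f3.

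The third maternal activator, sox19b, moved the same way as nanog at 6 hpf without reaching 2-fold. It had 63.5 RPKM in knockdown embryos and 32.0 RPKM in control embryos at 6 hpf, a log2 ratio of 0.97 and a linear ratio of 1.99. At 2 hpf it had 273 RPKM in knockdown embryos and 406 RPKM in control embryos, a log2 ratio of -0.57 that passed 2-fold at -1.33 with equal RPKM sums. It fell over time in both arms, with a log2 ratio of 6 over 2 hpf of -2.09 in knockdown and -3.63 in control embryos. The sox19b course was -2.86, and 622 genes had one between -3 and -2 at the same minimum level. Their median log2 ratio of knockdown over control at 6 hpf was 0.66, with an upper quartile of 0.97. Sox19b ranked 159 from the highest of these, so its 6 hpf ratio was not unusual among genes with a like fall. At 2 hpf its ratio was near the lowest, 606 from the highest of the 622. The sox19b ratio was thus larger at 6 hpf than at 2 hpf by 1.54 on the log2 scale. Of all 16217 genes 557 had a larger difference between ages than sox19b, and 252 had a larger one than nanog at 1.79. Nanog was 11.5 times as abundant as sox19b in knockdown embryos at 6 hpf and 6.49 times in control embryos at 6 hpf. At 2 hpf it was 4.34 times as abundant in knockdown and 2.90 times in control embryos. Sox19b thus dropped more steeply than nanog over time in each arm.

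The other SoxB1 genes, which are switched on by the embryo and bind the same DNA motif as Sox19b, did not share this pattern. Of the 4 SoxB1 genes in the tables none rose and 1 fell at 6 hpf, beside 8.72% and 7.87% of all genes. The gene that fell was sox2, a neural factor, at 2.18 RPKM in knockdown and 44.8 RPKM in control embryos. Its log2 ratio was -3.85. Sox3 stood at 145 RPKM in knockdown and 231 RPKM in control embryos, and fell by 1.02 on the log2 scale with median-ratio rescaling, just past 2-fold. Sox19a stood at 163 RPKM in knockdown and 179 RPKM in control embryos.

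Transcripts with a profile like that of nanog or pou5f3 were sought over the 4 tables. For each of 2497 other genes with a symbol and at least 50 RPKM in the highest table, the 4 log2(RPKM + 1) values less the gene mean were compared with those of nanog or pou5f3. The closest to nanog was cnot8, a deadenylase gene of the CCR4-NOT complex, with a root mean square difference of 0.049 on the log2 scale. Cnot8 had 218 RPKM in knockdown embryos at 6 hpf, 61.6 RPKM in control embryos at 6 hpf, 357 RPKM in knockdown embryos at 2 hpf and 382 RPKM in control embryos at 2 hpf. As for nanog, control embryos at 6 hpf held the lowest value, and knockdown embryos at 6 hpf lay between it and both 2 hpf values. The next were tatdn2 (0.081), a TatD nuclease-like gene, chp2 (0.082), a calcineurin-like calcium-binding protein gene, trappc6b (0.091), a vesicle tethering subunit gene, and tmem192 (0.10), a lysosomal membrane protein gene. The closest to pou5f3 was acvr1l, a type I receptor gene of BMP signalling, with a difference of 0.011. Acvr1l had 105 RPKM in knockdown embryos at 6 hpf, 111 RPKM in control embryos at 6 hpf, 78.4 RPKM in knockdown embryos at 2 hpf and 89.0 RPKM in control embryos at 2 hpf. It was followed by the folate enzyme gene mthfd1 (0.034), the apoptosis inhibitor gene api5 (0.034), and snw1 (0.034) and u2af2 (0.036), which take part in splicing. Between nanog and pou5f3 the difference was 1.19, and pou5f3 ranked 1524 of the 2497 genes by closeness to nanog. Likeness over 4 values describes these tables alone.

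**Figure D3:**
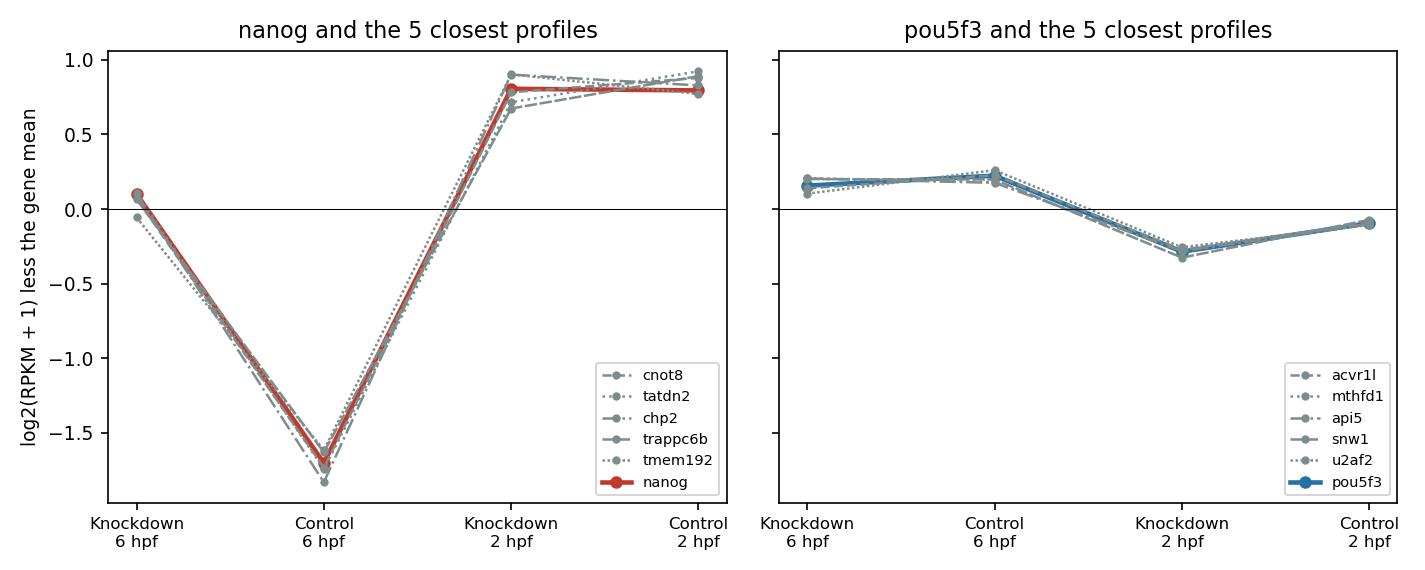
Log2(RPKM + 1) less the gene mean in the 4 groups for nanog (left, red) and pou5f3 (right, blue), each with the 5 closest genes (grey), 1 deposited value per group. The nanog set is lowest in control embryos at 6 hpf, and knockdown embryos at 6 hpf lie between these and both 2 hpf groups. The pou5f3 set is slightly higher at 6 hpf than at 2 hpf in both arms.

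Transcripts made in the oocyte were higher in the knockdown at 6 hpf, as nanog was. Of 13 such transcripts 6 had risen and none had fallen, beside 8.72% and 7.87% of all genes. All 13 lay above 0, with a median log2 ratio of 0.97 beside 0.20 for all genes. Genes that fell over time are a closer background. Those with a course between -2 and -1 had a median of 0.64, and those between -3 and -2 had 0.66. The quartiles were 0.26 and 0.97 in the first set and 0.30 and 0.97 in the second, so most genes in both sets also lay above 0. In the first set 459 of 1972 had risen and 9 had fallen. In the second 141 of 622 had risen and 2 had fallen. Gdf9, an oocyte growth factor gene, had 12.8 RPKM in knockdown and 2.54 RPKM in control embryos at 6 hpf. Pabpn1l, a poly(A)-binding protein gene, had 94.5 RPKM in knockdown and 29.5 RPKM in control embryos. Buc, which organizes the germ plasm, had 48.2 RPKM in knockdown and 15.0 RPKM in control embryos. Gdf3, the ligand gene also called vg1, had 165 RPKM in knockdown and 60.3 RPKM in control embryos. The nanog ratio of 1.81 lay within their range of 0.39 to 1.97. At 2 hpf their median was -0.10, and 1 of 13 had risen, org, an oogenesis-related gene, at 370 RPKM in knockdown and 181 RPKM in control embryos.

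Of 11 genes for the storage and decay of maternal mRNA, 1 had risen at 6 hpf and none had fallen, beside 8.72% and 7.87% of all genes. Their median log2 ratio was -0.09. The riser was cnot8, the closest match to nanog given above. Btg4, which recruits the deadenylase to maternal mRNA, stood at 24.1 RPKM in knockdown and 11.8 RPKM in control embryos, short of 2-fold on the log2(RPKM + 1) scale at 0.97. Pan2, a deadenylase subunit gene, stood at 19.7 RPKM in knockdown and 10.4 RPKM in control embryos. Ybx1, an mRNA-binding protein gene, stood at 1455 RPKM in knockdown and 2343 RPKM in control embryos, and its log2 ratio of -0.69 became -1.05 after median-ratio rescaling.

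Of the other transcription factor genes chosen as maternally supplied, 13 of 14 identifiers had no call at 6 hpf, as pou5f3 had none. The remaining 1 had risen and none had fallen, beside 8.72% and 7.87% of all genes. The list median was 0.18 and became -0.18 after median-ratio rescaling. The riser, the Hippo pathway cofactor gene vgll4l, had 135 RPKM in knockdown and 30.4 RPKM in control embryos at 6 hpf. It had 0.295 RPKM in knockdown and 0.131 RPKM in control embryos at 2 hpf, so these tables do not show it as maternal. Stat3 stood at 19.6 RPKM in knockdown and 10.4 RPKM in control embryos, the CCAAT-box factor gene nfya (ENSDARG00000001621) at 20.7 and 11.6 RPKM, and the Wnt pathway repressor gene tcf7l1b at 11.5 and 20.01 RPKM. Tcf7l1b fell by 1.09 on the log2 scale after median-ratio rescaling and was not called otherwise.

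No measured relative of pou5f3 in the POU family came near its level. Of 16 other POU symbols sought, 12 matched an identifier. The symbols pou2f1a, pou2f1b, pou2f2a and pou3f2b did not, so their level is unknown. Of the 12 other POU identifiers measured, 4 reached 1 RPKM in any table, and the highest value was 9.17 RPKM, for pou6f1 in control embryos at 2 hpf. At 6 hpf none of these 4 rose and 1 fell, beside 8.72% and 7.87% of all genes. The gene that fell was pou4f2, at 0.0610 RPKM in knockdown and 1.23 RPKM in control embryos. This level is too low for the minimum of 5 RPKM set for naming. The acetyl-lysine reader genes brd2b and brd3a had no call at 6 hpf. Brd3a stood at 248 RPKM in knockdown and 223 RPKM in control embryos, and brd2b at 7.65 and 3.91 RPKM.

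Genes linked in zebrafish to the route from Nanog to the yolk syncytial layer and endoderm were lower as a group at 6 hpf. Nanog itself was higher. Of 13 symbols listed 8 matched an identifier, and ndr2, gata6, sox32, sox17 and hnf1ba did not. Of 8 compared none rose and 5 fell, beside 8.72% and 7.87% of all genes. The median log2 ratio was -1.08 (-0.91 with a pseudocount of 5 RPKM). Falls were not particular to this list. Of the enveloping layer markers given below 7 of 8 fell, with a median of -2.53, and of the first-wave genes 3 of 12 fell. Slc26a1, an anion transporter gene, had 10.1 RPKM in knockdown and 31.9 RPKM in control embryos. Gata5, an endoderm factor gene, had 17.3 RPKM in knockdown and 52.1 RPKM in control embryos. Hnf4a, a nuclear receptor gene of the yolk syncytial layer, had 21.1 RPKM in knockdown and 62.8 RPKM in control embryos. Sebox, a mesendoderm homeobox gene, had 7.27 RPKM in knockdown and 16.9 RPKM in control embryos, a fall that missed 2-fold at -0.83 with a pseudocount of 5 RPKM. The remaining fall was mxtx1, at 43.1 RPKM in knockdown and 90.3 RPKM in control embryos. Mxtx2, the homeobox gene through which Nanog is known to act in this layer, stood at 48.6 RPKM in knockdown and 29.5 RPKM in control embryos, a log2 ratio of 0.70 with no call.

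The few measured genes named as targets of Pou5f3 in zebrafish went both ways at 6 hpf. Of 12 symbols listed only 6 matched an identifier, and her3, vox, vent, ved, bmp2b and sox17 did not. Of 5 compared 1 rose and 1 fell, beside 8.72% and 7.87% of all genes. The median was 0.22 and became -0.14 after median-ratio rescaling. Klf2a, a Krüppel-like factor gene, rose, at 29.1 RPKM in knockdown and 7.27 RPKM in control embryos, and sox2 fell as given above. Mych, a Myc family gene, stood at 226 RPKM in knockdown and 173 RPKM in control embryos, and klf2b at 18.8 and 28.4 RPKM. In the wider pluripotency list, which shares 4 compared members with these targets, 1 of 10 rose and 3 fell, beside the same shares of all genes. Its median was -0.11, or 0.02 when low values were not filtered. The falls included prdm14, a PR-domain factor gene, at 1.26 RPKM in knockdown and 26.2 RPKM in control embryos, and lin28a (ENSDARG00000004328) at 12.6 and 29.4 RPKM. A second identifier carries the lin28a symbol and had no call. With a pseudocount of 5 RPKM lin28a missed 2-fold at -0.97. Foxd3 was listed at 0 in 3 tables and at 0.0117 RPKM in knockdown embryos at 6 hpf, and was not compared. Whether these values reflect absence of the transcript was not tested, and they were not interpreted.

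**Figure D4:**
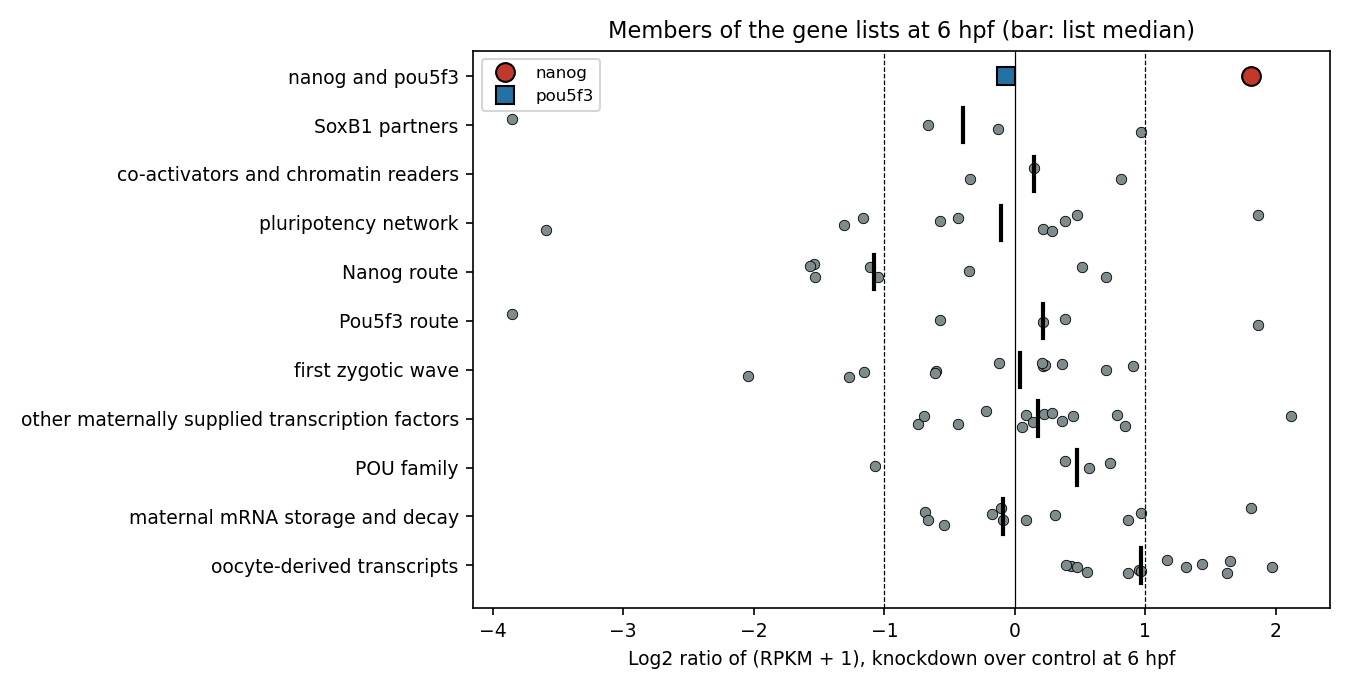
Log2 ratio of (RPKM + 1), knockdown over control at 6 hpf, for nanog (red circle), pou5f3 (blue square) and the members of 10 gene lists (grey points, 1 per identifier compared), with list medians as bars and 2-fold as dashed lines. Nanog at 1.81 lies within the range of the oocyte-derived transcripts. Pou5f3 at -0.07 lies within the range of the other maternally supplied factors, below their median of 0.18.

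Among genes of the first zygotic wave, which the activators switch on, the values at the ages differed. Of 17 symbols listed 13 matched an identifier, and vox, vent, her3 and sox32 did not. At 2 hpf all 12 compared lay above 0 in knockdown over control, and 2 rose, beside 0.506% of all genes. The median log2 ratio of the 12 was 0.52, beside -0.12 for all genes, whose upper quartile was 0.01. Of the 13 identifiers 5 reached 1 RPKM in knockdown embryos at 2 hpf, and none did in control embryos. Those below 1 RPKM at 2 hpf were compared only through their 6 hpf values, so the count above 0 rests largely on values near 0. Klf17, a Krüppel-like factor gene, had 3.12 RPKM in knockdown and 0.739 RPKM in control embryos at 2 hpf. Irx7, an Iroquois homeobox gene, had 1.70 RPKM in knockdown and 0.207 RPKM in control embryos. These levels are low, and the median was 1.71 with a pseudocount of 0.1 RPKM and 0.14 with one of 5 RPKM. At 6 hpf none of the 12 rose and 3 fell, beside 8.72% and 7.87% of all genes. The first-wave median was 0.04 and became -0.32 after median-ratio rescaling. Apoeb, an apolipoprotein gene, had 405 RPKM in knockdown and 1678 RPKM in control embryos at 6 hpf. Dusp6, a phosphatase gene that limits FGF signalling, had 32.3 RPKM in knockdown and 79.5 RPKM in control embryos, and foxa3, an endoderm forkhead gene, 46.7 and 105 RPKM. Asb11, a ubiquitin ligase adaptor gene, stood at 270 RPKM in knockdown and 144 RPKM in control embryos. Nanog and pou5f3 RNA were within 2-fold of control at 2 hpf, and any link between them and the first-wave values was not tested.

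Marker genes of the cell types in these whole embryos were read as well. All 8 enveloping layer markers in the tables, from the outer epithelium, had at least 1 RPKM in both 6 hpf groups and none had in either 2 hpf group. Their summed level was 1183 RPKM in knockdown and 3502 RPKM in control embryos at 6 hpf. Of the 8, 7 had fallen, beside 7.87% of all genes. The summed level of 6 yolk syncytial layer markers was 96.5 RPKM in knockdown and 194.6 RPKM in control embryos at 6 hpf. Of the 5 compared, 4 had fallen, beside the same share of all genes. Of these 5, slc26a1, hnf4a and mxtx2 are also in the Nanog route list above, so this count is in part the same genes. Likewise the enveloping layer marker cldne is in the first-wave list and the germ cell marker dazl in the oocyte-derived list. That of 8 primordial germ cell markers, which are also maternal, was 284 RPKM in knockdown and 180 RPKM in control embryos at 6 hpf, and 524 and 517 RPKM at 2 hpf. Of 5 ovarian follicle markers zp3c alone reached 1 RPKM, and no marker of neurons, muscle or blood did, with a highest value of 0.408 RPKM. Of 7 genes chosen as embryo-wide, 1 had risen and 3 had fallen at 6 hpf, beside 8.72% and 7.87% of all genes. Their median log2 ratio was -0.18, and -0.55 to 0.01 over the settings. The falls were eef1a1l1, just past 2-fold at -1.02, gapdhs and tuba1b, and the riser was tbp. Gapdhs stood at 3.67 RPKM in knockdown and 42.3 RPKM in control embryos at 6 hpf, and at 0.611 and 1.27 RPKM at 2 hpf. Tuba1b stood at 1.21 and 4.78 RPKM at 6 hpf, below the minimum of 5 RPKM set for naming. Whether falls were limited to markers of cell layers was not tested. In bulk embryos fewer cells of a type and less RNA per cell cannot be told apart. The part of these shifts in the nanog difference was not tested. Nor do poly(A) libraries tell RNA amount from poly(A) tail capture.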

How the data were processed

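Per the labels' protocols, RNA was taken up in TRIzol, mRNA was purified on beads and libraries were made with a stranded KAPA kit. HISAT2 2.0.5, SAMtools 1.9, cutadapt 1.13, Trimmomatic 0.36 and the build Zv9 are named in the submitters' processing notes. No source used here gives the read counter, its use of strand or the lengths of genes. The 4 deposited tables hold RPKM and have no header. Each table was matched to a group by its genotype tag and age. How the 2 libraries were joined is not stated. The tables give no coordinates.

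Symbols, written here in lower case, came from a table that matched 21939 of 33737 identifiers. Counts for the gene lists cover only symbols that matched an identifier. A limma fit was foreseen only if the tables held a value per library, which they did not. Ratios used a pseudocount of 1 RPKM and genes that reached 1 RPKM in some table. Alternatives were other pseudocounts, filters and scalings. The members and lists were chosen with earlier results of these data known. Named were nanog, pou5f3 and sox19b, in each list the up to 4 largest ratios at 6 hpf and up to 2 past 2-fold at 2 hpf (minimum of 5 RPKM in the higher group), and the 5 closest profiles. The genes mxtx1, mxtx2, klf17, irx7, pou6f1, pou4f2, foxd3, zp3c, ctnnb1, ctnnb2 and the factors above nanog were named after their values were seen. So were eef1a1l1, gapdhs, tuba1b and tbp. Some genes the rule drew are not reported here. Overlapping and antisense genes, and near-identical copies, can share reads. Python 3.11.15, pandas 2.3.3 and numpy 2.4.6 were used.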

Additional observations from a re-analysis of the deposited data

How the results depend on the processing

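The nanog rise at 6 hpf kept its direction and stayed past 2-fold under all 8 alternatives, with log2 ratios of 1.44 to 1.89, and so did its fall over time in control embryos (-2.95 to -1.95). The filters cannot change the ratio of a single gene. The other pseudocounts could barely move nanog at its level, and gave 1.81 and 1.79 at 6 hpf. Only the scalings could therefore have altered these calls. The pou5f3 ratios of knockdown over control stayed within 2-fold (-0.43 to 0.15 at 6 hpf and -0.95 to 0.0011 at 2 hpf). Equal RPKM sums put nanog at -0.08 and pou5f3 at 1.07 for 6 over 2 hpf in knockdown embryos; in that scaling 5 features take 45.1% of the sum of knockdown embryos at 2 hpf. The nanog to pou5f3 ratios within a table moved by under 1.5 times with quantile normalization. No other setting could change them.

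Medians crossed 2-fold for the oocyte-derived list at 6 hpf (1.24) and the first-wave list at 2 hpf (1.71) with a pseudocount of 0.1 RPKM, and for the Nanog route at 6 hpf (-0.91) with one of 5 RPKM. Counts of genes risen and fallen moved most. With 0.1 RPKM they were 2875 and 1925 in knockdown over control at 6 hpf and 287 and 582 at 2 hpf. With 5 RPKM they were 459 and 539 at 6 hpf, 33 and 19 at 2 hpf, 2119 and 1194 over time in knockdown embryos and 2374 and 2641 in control embryos. A filter of 5 RPKM left 96 falls at 2 hpf. Median-ratio rescaling gave 598 and 2176 at 6 hpf, 89 falls at 2 hpf and 2928 falls over time in control embryos. Quantile normalization gave 89 falls at 2 hpf and 3220 over time in knockdown embryos. Equal sums gave 36 and 3438 at 2 hpf and 902 falls over time in knockdown embryos. Where no value shows it, the cause was not tested.

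No paired analysis was possible because each table holds 1 value for both libraries of a group. The planned fits that leave out a library were not run, as no library has a value of its own. Replicate error is unknown.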
